A study of Arabidopsis thaliana with 14 samples.

Results

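The genes described here are the 200 Arabidopsis loci, of 21195 measured, whose values most clearly separated laser-dissected inflorescence meristems from whole inflorescences. For each locus the highest of the 10 inflorescence arrays was subtracted from the lowest of the 4 meristem arrays, and the 200 loci with the highest score were taken. All values are on the log2 scale of the deposited tables, so a difference of 1 is a 2-fold difference. The same values chose the genes, so the tissue difference is described and not tested. All plants were in the Ler background. Fertile growing, arrested and fruit-removal plants carry the genotype label ms1-1 co-segregant, and sterile growing plants are ms1-1 homozygous. Meristems of fertile growing plants, sterile growing plants, fertile arrested plants and arrested plants 48 h after fruit removal had 1 array each. Whole inflorescences had 1 array for fertile growing plants, 1 for sterile growing plants and 2 each for arrested plants and for 6 h, 24 h and 48 h after fruit removal. An inflorescence sample pooled 3 to 10 plants and held flowers up to about stage 10. A meristem sample pooled dissected sections of at least 20 plants. Each sample is a pool, and where nothing in the labels says that arrays of a group came from separate growths, the tests measure the spread between these arrays, which may be technical.

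The inflorescence meristem keeps a pool of stem cells at the shoot tip and gives rise to flowers on its flanks. The homeodomain protein WUS, made beneath the stem cells, maintains them, and the peptide CLV3, secreted by them, limits WUS. Boundary genes of the CUC family separate young organs from the meristem, and TFL1 keeps the shoot tip from turning into a flower. In annual plants such as Arabidopsis the inflorescence meristems stop making flowers after enough seed has set, and removing the fruits or blocking seed set lets them go on. The study addressed how gene expression differs between growing, arrested and reactivated apices.

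The score of the 200 genes ran from 3.41 to 1.26, with a median of 1.49, against a median of -0.53 over all loci. It was at least 2 in 27 of them and under 1.5 in 103. The last genes inside were bHLH11 at 1.27, PLC4 at 1.27 and AT1G35663 at 1.26. The boundary cuts through a tie, since 5 further loci, AT2G33440, AT3G06570, AT4G08110, AT4G39550 and AT5G54880, also scored 1.26 and were left outside by the order of their identifiers. The choice sits within a wide shift. The lowest meristem array lay above the highest inflorescence array in 6230 loci, 29.4% of all, and the reverse held in 2127 loci, 10% of all. The median value of the 200 genes ranged from 8.91 to 9.0 over the meristem arrays and from 6.00 to 6.81 over the inflorescence arrays, while the median of all loci was 7.43 to 7.49 in meristem arrays and 7.27 to 7.45 in inflorescence arrays. Tissue means differed by a median of 2.29 for the 200 genes and 0.44 for all loci. Within matched states the median difference was 2.35 in fertile growing plants, 1.80 in sterile growing plants, 2.41 in arrested plants and 2.32 at 48 h after removal.

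**Figure D1:**
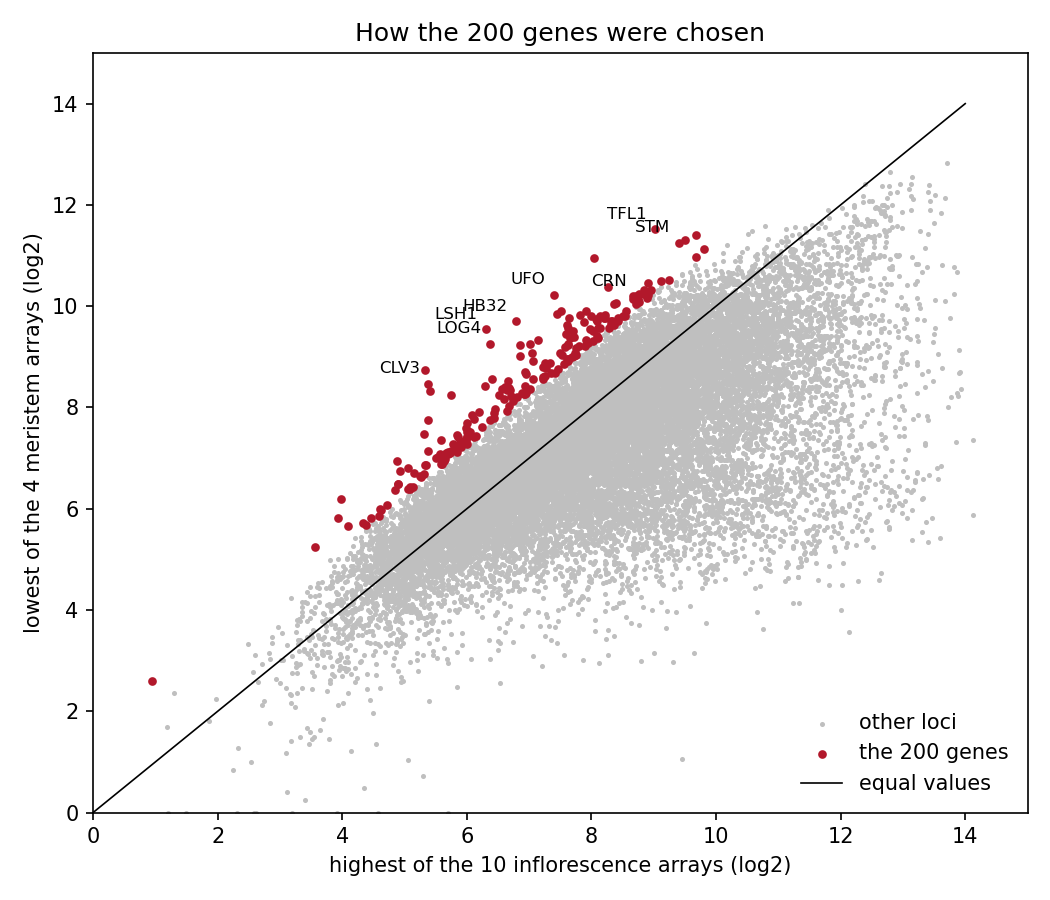
Each point is 1 locus, with its highest value over the 10 inflorescence arrays on the x axis and its lowest value over the 4 meristem arrays on the y axis, both log2. The 200 genes (red) form the upper edge of the cloud, 1.26 or more above the line of equal values, and 8 of them are named.

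Part of the markers of the shoot meristem separated the tissues. Of 12 such markers, CLV3, STM, CUC1, CUC3, TFL1 and FD were among the 200 genes. RAX1 (score 1.00) and LAS (0.65) were higher in every meristem array than in any inflorescence array but fell short of the boundary. WUS averaged 8.07 in meristems and 5.56 in inflorescences, yet its score was -0.44 because the highest inflorescence array reached 7.79. CLV1, CUC2 and KNAT1 also overlapped between the tissues, with mean differences of 1.05, 0.13 and -0.36. In a list of 36 measured meristem and boundary regulators, 7 were among the 200 genes, 13 had a score above 0 and 3 had no overlap in the opposite direction. Over all loci, 29.4% had a score above 0 and 10% had no overlap in the opposite direction. Among 9 photosynthesis genes, 0 were among the 200 and all 9 were lower in every meristem array than in any inflorescence array, with a median difference of -3.29. In epidermis markers this held for 6 of 9. Of 18 floral identity and organ factors, 9 were lower in every meristem array than in any inflorescence array. Another 5 of the 18 had a score above 0, and 1 was among the 200.

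Sample handling differed between the tissues in every array. Meristem tissue was fixed, embedded in wax, sectioned at 10 µm and its RNA amplified in an additional round before labelling, whereas inflorescences were frozen and labelled directly. Tissue, fixation, RNA kit and amplification therefore cannot be told apart. Control rows of the array moved between the tissues too. The 18 rows for bioB, bioC, bioD and cre, which report RNA added at hybridisation, had a median difference of 1.69, meristem minus inflorescence. The 27 rows for dap, lys, phe, thr and trp had a median difference of 0.96, and 14 of them had no overlap between tissues in that direction. The 10 rows for actin, GAPDH and ubiquitin had a median of -1.79. Among them the row at the 5′ end of GAPDH averaged 4.87 in meristems and 10.33 in inflorescences. The part of these shifts in the values of the 200 genes was not tested. In such bulk samples, fewer cells of a type and less RNA per cell cannot be told apart.

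Loci that were low in inflorescences tended to be higher in meristems. With all loci split into 5 equal bins by mean inflorescence value, the median tissue difference was 0.95 in the lowest bin and -0.37 in the highest. The inflorescence mean enters both the bins and the difference, so part of this trend is built in. The 5th percentile of an array was 5.10 to 5.21 in meristems and 4.32 to 4.70 in inflorescences. The 200 genes fell into these bins, from lowest to highest, as 74, 48, 53, 19 and 6. In every inflorescence array 118 of them (59.0%) were below the array's median, against 37.3% of all loci. In every meristem array 142 of them were above the median, and 32 stayed below the median in all 14 arrays. The score used these same 14 arrays, so the bins and these counts are partly set by the choice of genes. Of the 200 loci, 199 were in the gene table of assembly TAIR10.1, which gave a symbol for 90. The 200 loci with the strongest opposite score lay at other levels, with 0 in the lowest bin and 178 in the highest. Against 3.94% of all loci and 0 of the opposite loci, unmatched for level, the table lists 18 of the 200 as pseudogenes (9.0%). The top score of all belonged to one of them, AT2G11240, at 8.74 and 9.23 in the fertile and sterile growing meristems, 9.28 in the arrested meristem and 8.86 at 48 h after removal, against 4.27 to 5.33 in inflorescences.

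The genes with symbols were grouped by known role after their values had been seen, so each group is a description. In CLV3 signalling and cytokinin activation, CLV3 measured 8.80 and 8.47 in fertile and sterile growing meristems, 9.26 in the arrested meristem and 8.91 at 48 h after removal. The 10 inflorescence arrays gave 4.51 to 5.38 with a median of 5.21, and the arrested meristem was the highest of the 4. LOG4, an enzyme that releases active cytokinin, measured 10.10 and 9.80 in growing meristems, 9.26 in the arrested one and 9.60 at 48 h, against 4.92 to 6.37 in inflorescences. CRN, a membrane protein of the CLV3 pathway, measured 10.20 to 10.57 in meristems and 7.19 to 8.71 in inflorescences. LOG4 was lowest in the arrested meristem, where CLV3 was highest, and CRN varied little among the states.

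The genes of boundaries and of the undifferentiated state included the second-highest score, LSH1, a member of the plant ALOG family. LSH1 measured 10.44 and 9.54 in fertile and sterile growing meristems, 10.50 in the arrested meristem and 9.82 at 48 h after removal, against 5.64 to 6.30 in inflorescences. CUC3 measured 9.01 to 9.93 in meristems and 4.55 to 6.85 in inflorescences. CUC1, a related boundary factor, measured 9.90 to 10.18 in meristems and 6.65 to 7.92 in inflorescences. STM, the homeobox factor that keeps meristem cells undifferentiated, was the steadiest of these at 11.25 to 11.41 in meristems, with 8.23 to 9.40 in inflorescences. MNP, also called HAN, a GATA factor of organ boundaries, measured 10.42 and 10.61 in growing meristems, 9.23 in the arrested meristem and 10.55 at 48 h after removal, against 6.07 to 7.62 in inflorescences. Its arrested meristem lay below the other 3.

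The group of inflorescence and floral identity genes held TFL1, with the largest mean tissue difference among the named genes, 4.29. It measured 11.52 and 11.76 in fertile and sterile growing meristems, 12.46 in the arrested meristem and 11.90 at 48 h after removal, against 6.74 to 9.02 in inflorescences. UFO, an F-box partner of the floral regulator LFY, measured 11.24 and 11.55 in growing meristems, 10.23 in the arrested meristem and 10.84 at 48 h, against 6.49 to 7.40 in inflorescences. PAN, a bZIP factor that sets floral organ number, measured 10.61 and 10.68 in growing meristems, 9.46 in the arrested meristem and 10.19 at 48 h, against 6.03 to 7.59 in inflorescences. UFO and PAN were thus lowest in the arrested meristem, and TFL1 was highest there.

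Other identity genes differed less between the meristem states. AGL24, a MADS-box promoter of flowering, measured 9.23 to 9.91 in meristems and 5.75 to 6.85 in inflorescences. FD, the bZIP partner of both FT and TFL1, was at 7.69 to 8.14 in meristems and 4.72 to 6.00 in inflorescences. MYB17, also known as LMI2, was at 11.30 to 11.98 in meristems and 8.65 to 9.50 in inflorescences. SAP, needed for flower and ovule development, scored 2.04, and the auxin response factor ETT scored 1.32. REM1 and AT4G31615, both B3-domain genes of the reproductive meristem family, were the single pair of neighbouring loci among the 200, with scores of 1.80 and 2.50.

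Zinc-finger homeodomain factors were represented by HB32 and ZFHD1. HB32, GA3OX3 and IQD22 tied at a score of 2.91, next after CLV3. HB32 measured 10.12 and 9.70 in growing meristems, 10.71 in the arrested meristem and 9.82 at 48 h, against 6.02 to 6.79 in inflorescences. ZFHD1 measured 10.20 and 9.74 in growing meristems, 11.08 in the arrested meristem and 10.01 at 48 h, against 6.68 to 8.07 in inflorescences. Both were highest in the arrested meristem. Gibberellin genes included GA3OX3, which makes bioactive gibberellin, at 8.32 to 9.14 in meristems and 4.82 to 5.41 in inflorescences. RGL3, a DELLA repressor of gibberellin responses, was at 8.56 to 9.65 in meristems and 5.65 to 6.40 in inflorescences. IQD22, of a calmodulin-binding family, was at 10.95 to 11.34 in meristems, with 6.99 to 8.04 in inflorescences.

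**Figure D2:**
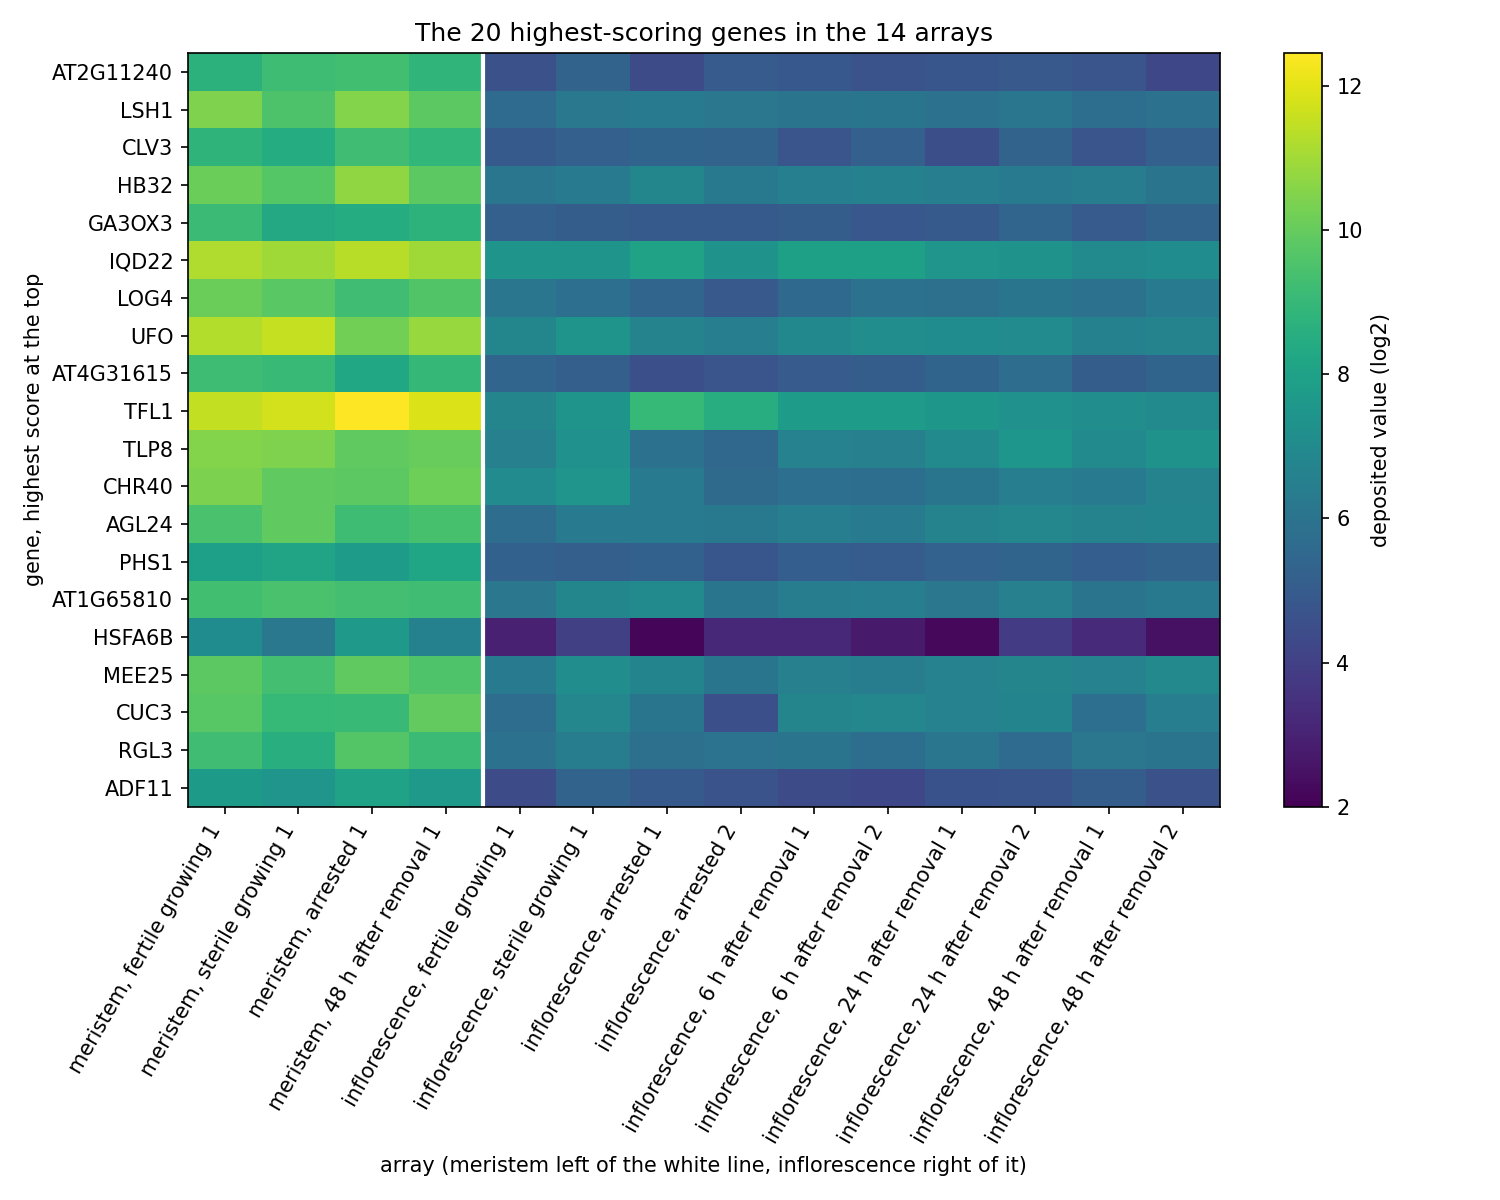
Colour gives the deposited log2 value of the 20 highest-scoring genes (rows, highest score at the top) in each of the 14 arrays (columns), with meristem arrays left of the white line. Every gene is brighter in all 4 meristem arrays than in any inflorescence array, and TFL1 stands out by its bright arrested columns in both tissues.

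Several genes with symbols act in chromatin, chromosomes or DNA repair, though these were picked after their values had been seen. A separate list of 17 genes of DNA methylation, small RNA and DNA repair had 0 among the 200. Of these 17, 9 had a score above 0, against 29.4% of all loci, and the median tissue difference was 1.44. CHR40, an SNF2-type chromatin remodeller, scored 2.39, at 9.84 to 10.40 in meristems and 5.63 to 7.45 in inflorescences. Also present were the histone deacetylase HDA18 (1.78), the RNA-directed silencing protein AGO6 (1.37), the Polycomb protein VRN2 (1.34) and SHH2 (1.27). Of 5 genes with roles in meiosis, PHS1, needed for chromosome pairing, had the highest score, 2.37, at 7.75 to 8.13 in meristems and 4.81 to 5.38 in inflorescences. EME1A (1.71), ZYP1b (1.66), ASY1 (1.60) and the cohesin subunit SCC3 (1.29) followed. Among 6 repair and telomere genes the telomere-capping gene CTC1 (1.71) and the poly(ADP-ribose) polymerase PARP2 (1.62) scored highest, and REV3, RPA1A, ARP and DNA polymerase lambda lay between 1.29 and 1.52. The mitotic kinases AUR3 and NEK2 scored 1.72 and 1.68. Broad cell-division genes were not among the 200. The 17 measured had a median tissue difference of 1.72, but 3 had a score above 0, against 29.4% of all loci. The list spanned 6.77 to 9.57 in its mean over the inflorescence arrays, against 9.15 to 10.37 over the meristem arrays.

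Among the remaining high scores, HSFA6B, a heat-stress transcription factor, measured 7.10 and 6.20 in fertile and sterile growing meristems, 7.61 in the arrested meristem and 6.58 at 48 h, against 2.19 to 3.98 in inflorescences. TLP8, a tubby-like protein gene, measured 9.90 to 10.52 in meristems and 5.54 to 7.51 in inflorescences. MEE25 (2.19), ADF11 (2.15), an actin-depolymerizing factor gene, and AT1G65810 (2.25) completed the 20 highest scores. The pseudogene AT5G32490 is listed at 0 in 5 inflorescence arrays and measured 2.60 to 4.18 in meristems.

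The 200 genes varied less between meristem states than loci in general did. Their range over the 4 meristem arrays had a median of 0.44, against 0.59 for all loci, and reached 1 or more in 20 of them. A low range is partly built into a score that uses the lowest meristem array. With 1 array per state there is no replicate check and no test. The mean of the 3 active meristems (fertile growing, sterile growing and 48 h after removal) exceeded the arrested meristem by at least 1 in 5 of the 200 genes (2.5%), against 5.71% of all loci. It was lower by at least 1 in 3 of them (1.5%), against 5.04% of all loci. In single states, the count higher by at least 1 was 8 in fertile growing meristems (all loci 5.47%), 5 in sterile growing meristems (7.1%) and 5 at 48 h after removal (6.53%). The count lower by at least 1 was 5 (5.17%), 6 (6.12%) and 6 (5.66%) in the same order. These 3 differences share the arrested array.

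The largest excess in active meristems was in ABCG33, a gene for an ABC transporter. ABCG33 measured 8.84 and 9.34 in fertile and sterile growing meristems and 9.24 at 48 h after removal, against 7.31 in the arrested meristem. UBQ12, a polyubiquitin gene, measured 8.41, 8.71 and 7.80 in those 3 states, against 6.75 when arrested. MNP, PAN and AT5G32490 followed, with mean differences of 1.30, 1.03 and 1.03. All meristem values of AT5G32490 lay below the 5th percentile of the meristem arrays, 5.10 to 5.21. In the opposite direction, TPPI, which encodes a trehalose-6-phosphate phosphatase, measured 8.07, 7.89 and 7.76 in active meristems, against 9.12 in the arrested meristem. ZFHD1 (-1.10), AT1G36095 (-1.08), GSTZ2 (-0.99), of the glutathione S-transferase family, and HSFA6B (-0.98) were the next lowest relative to arrest. In each of these 10 genes all 3 active meristems lay on the same side of the arrested one.

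In whole inflorescences, growing minus arrested was tested with limma over all 10 arrays. Of the 200 genes, 29 (14.5%) passed an adjusted p of 0.05, against 25.9% of all loci, 26 of them higher in growing inflorescences (13%, all loci 14%) and 3 lower (1.5%, all loci 11.9%). The score that chose the genes subtracts the highest of these same 10 arrays, so loci with large differences among them were disfavoured. The shares called, here and after fruit removal, are therefore partly set by the choice of genes, and their being below those of all loci is not a result. The median difference was 0.26 for the 200 genes and 0.07 for all loci. AT4G34400, for which the gene table gives no symbol, had the largest rise. It measured 9.0 and 9.68 in fertile and sterile growing inflorescences, against 7.20 and 6.43 in arrested ones, a difference of 2.53 ± 0.31 (SE of the fit, adjusted p = 0.00122).

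AT3G04980, AT2G41820, AT1G07270 and CHR40 came next. AT2G41820, listed with the synonym PXC3, measured 6.61 and 8.14 in fertile and sterile growing inflorescences, against 6.20 and 5.65 in arrested ones, a difference of 1.45 ± 0.25 (limma adjusted p = 0.00514). CHR40 measured 7.06 and 7.45 in growing inflorescences, against 6.34 and 5.63 in arrested ones, a difference of 1.27 ± 0.27 (limma adjusted p = 0.0124). AT3G04980 and AT1G07270 rose by 1.61 ± 0.34 and 1.38 ± 0.27 (limma adjusted p = 0.0112 and 0.00904). TLP8, PAN, AUR3, MNP, CTC1 and EME1A were also called higher, by 1.22, 1.10, 1.08, 0.83, 0.98 and 0.78. TFL1 fell most. It measured 6.74 and 7.43 in fertile and sterile growing inflorescences, against 9.02 and 8.53 in arrested ones, with no overlap, a difference of -1.69 ± 0.21 (limma adjusted p = 0.00123). The other 2 that fell were AT3G47210 (-0.93 ± 0.26, limma adjusted p = 0.0368) and AT5G65170 (-0.65 ± 0.16, limma adjusted p = 0.023).

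This count rested on the sterile growing array. The fertile growing array alone, set against the arrested arrays, gave 4 called genes of the 200 (2 higher and 2 lower, with 13.3% of all loci called), and the sterile growing array alone gave 38 (37 higher and 1 lower, 26.4% of all loci). AT4G34400 and TFL1 were called with either array. AT3G04980, AT2G41820, AT1G07270 and CHR40 were not called with the fertile growing array alone (limma adjusted p = 0.0685, 0.198, 0.228 and 0.0759), nor were TLP8 (0.104), PAN (0.0782) and CTC1 (0.273). AT3G47210 and AT5G65170 were called with neither array alone. The calls of MNP and EME1A were lost in 11 and 8 of 15 alternative settings, while that of AUR3 held in all of them. The sterile growing array was the highest of the 10 inflorescence arrays in 115 of the 200 genes (57.5%) and in 25.9% of all loci. Its median deviation from a gene's own inflorescence median was 0.42 for the 200 genes and 0.17 for all loci. Anther and tapetum markers moved with this comparison: 10 of 11 were called higher, with list means of 9.88 and 9.10 in fertile and sterile growing inflorescences, against 5.62 to 5.73 in arrested ones, and no marker was at 0. All 17 cell-division genes were called higher as well, with list means of 8.54 and 9.57 in fertile and sterile growing inflorescences, against 6.77 to 6.86 in arrested ones. Their part in the members' differences was not tested. The result also shifted with the arrested arrays: 50 of the 200 genes (47 higher) were called without arrested array 1, with 33.0% of all loci, and 22 (16 higher) without arrested array 2, with 24.9% of all loci.

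After fruit removal the 200 genes were tested against arrest at each time. At 6 h 13 were called (6.5%), against 21.8% of all loci, 9 higher (4.5%, all loci 8.7%) and 4 lower (2.0%, all loci 13.1%). At 24 h it was 14 (7.0%), against 22% of all loci, 12 higher (6.0%, all loci 10.5%) and 2 lower (1.0%, all loci 11.5%). At 48 h it was 16 (8.0%), against 26.4% of all loci, 11 higher (5.5%, all loci 12.5%) and 5 lower (2.5%, all loci 13.9%). The median difference from arrested was -0.01, 0.08 and -0.01 at the 3 times, against -0.09, 0.08 and -0.02 for all loci. These comparisons share the 2 arrested arrays with each other and with the growing comparison. The direction of the calls and of the median difference depended on those arrays. Without arrested array 1 the median difference of the 200 genes was 0.075, 0.155 and 0.0625 at the 3 times, against -0.13, 0.04 and -0.05 for all loci. Without arrested array 2 it was -0.1, -0.0075 and -0.1175, against -0.04, 0.105 and 0.02 for all loci. The title code that begins with r or g, used as a block, gave the same medians as leaving out arrested array 1. All removal arrays carry g and that array carries r. At 48 h quantile normalization gave 12 higher and 13 lower, against 3262 and 2821 over all loci. Median centring gave 13 higher and 9 lower, against 2741 and 3051 over all loci.

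**Figure D3:**
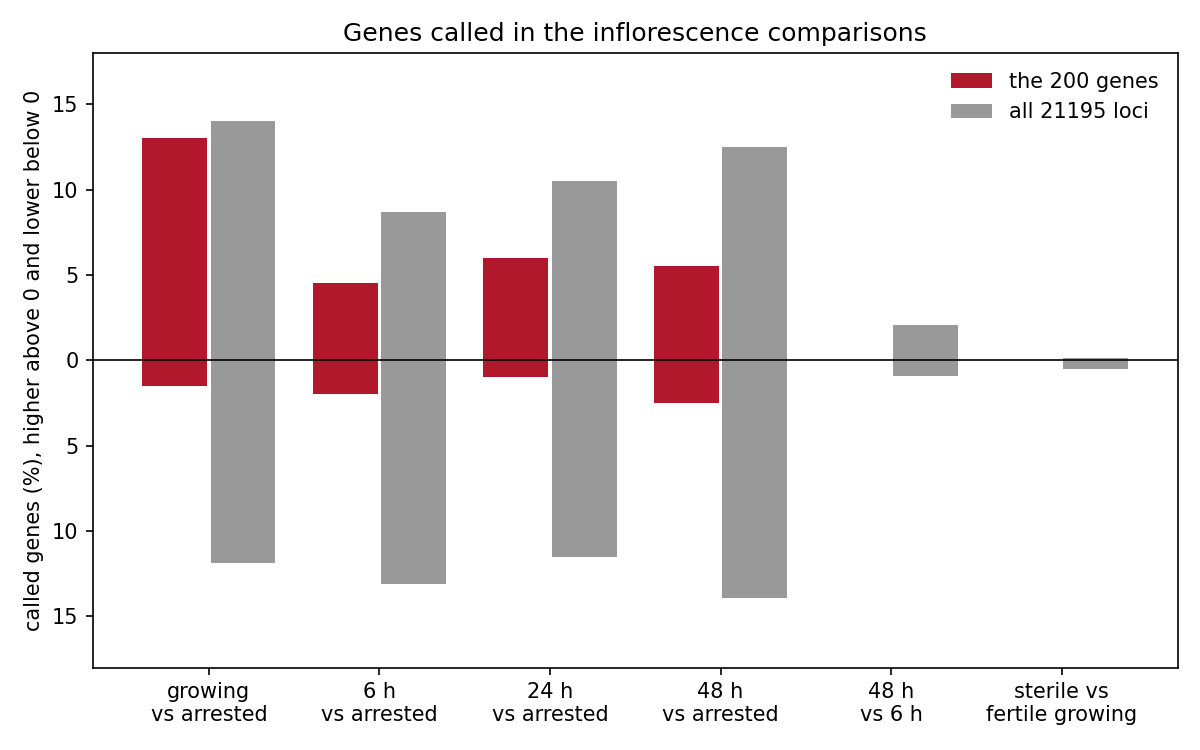
Bars give the percentage of genes called higher (above 0) and lower (below 0) at an adjusted p under 0.05 in each inflorescence comparison, for the 200 genes (red) and for all 21195 loci (grey). The red bars reach 13% higher in growing inflorescences and 1.0% to 2.5% lower in the comparisons with arrest. They are at 0 for 48 h against 6 h and for sterile against fertile growing. Their height is partly set by a score that used the same arrays.

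AT4G34400 also led the rises after removal. It measured 7.20 and 6.43 in arrested inflorescences, 8.61 and 8.14 at 6 h, 8.82 and 9.22 at 24 h and 8.60 and 9.02 at 48 h. The differences from arrested were 1.56 ± 0.31, 2.21 ± 0.31 and 2.00 ± 0.31 (limma adjusted p = 0.0127, 0.00408 and 0.00358). TLP8 measured 5.89 and 5.54 in arrested inflorescences, 6.64 and 6.54 at 6 h, 6.96 and 7.51 at 24 h and 7.01 and 7.32 at 48 h. It rose by 0.88 ± 0.24, 1.52 ± 0.24 and 1.45 ± 0.24 at the 3 times (limma adjusted p = 0.0377, 0.00542 and 0.00449). AT2G41820 rose by 1.05, 1.13 and 1.43 and AT1G31760 by 1.01, 1.01 and 1.01, each called at every time. PAN was at 6.70 and 6.03 in arrested inflorescences and 7.35 and 7.33 at 6 h, and it rose by 0.98, 0.91 and 0.81 at the 3 times. AT1G07270 rose by 1.24 at 24 h and 1.42 at 48 h. Some of these calls rested on single arrays. The 6 h call of AT4G34400 was lost without 6 h array 1 (limma adjusted p = 0.0991), and those of TLP8, AT2G41820, AT1G31760 and PAN without either 6 h array. The PAN calls at 24 h and 48 h were lost in 7 and 8 of 13 alternative settings, and the 24 h call of AT1G07270 without either 24 h array (limma adjusted p = 0.0661 and 0.099).

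FD and CUC3, of the list of meristem regulators, were called at 6 h. FD was at 5.21 and 4.72 in arrested inflorescences and at 5.83 and 6.00 at 6 h, a rise of 0.95 ± 0.21 (limma adjusted p = 0.0168). It was at 5.35 and 5.46 at 24 h and 4.87 and 4.99 at 48 h, where it was not called. The 6 h call of FD was lost without either 6 h array (limma adjusted p = 0.0886 and 0.132). CUC3 measured 6.05 and 4.55 in arrested inflorescences, a wide spread, and 6.75 and 6.85 at 6 h, a rise of 1.50 ± 0.45 (limma adjusted p = 0.0482). That call was lost in 8 of 13 alternative settings. Of the genes outside that list, LOG4 measured 5.42 and 4.92 in arrested inflorescences, 5.56 and 5.92 at 6 h, 5.88 and 6.06 at 24 h and 5.93 and 6.37 at 48 h, where it was called with a rise of 0.98 ± 0.25 (limma adjusted p = 0.0249). It was not called without arrested array 2 or 48 h array 2 (limma adjusted p = 0.0787 and 0.141). AT4G31615 was called at 24 h, with a rise of 0.91 ± 0.21 (limma adjusted p = 0.019), lost without 24 h array 2 (0.112). CLV3, STM, CUC1 and CRN, also of that list, and UFO were not called in any of these comparisons. Of the whole list of 36 meristem and boundary regulators, 2 rose and 3 fell at 6 h, 0 rose and 8 fell at 24 h, and 2 rose and 9 fell at 48 h, while 3 rose and 9 fell in growing inflorescences. Apart from TFL1, those that fell were not among the 200 genes.

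TFL1 fell at each time. It measured 9.02 and 8.53 in arrested inflorescences, 7.80 and 7.73 at 6 h, 7.53 and 7.30 at 24 h and 7.12 and 6.98 at 48 h. The differences were -1.01 ± 0.21, -1.36 ± 0.21 and -1.73 ± 0.21 (limma adjusted p = 0.0143, 0.00507 and 0.00132), and no later array reached an arrested one. The 6 h call was lost without either 6 h array (limma adjusted p = 0.0923 and 0.106). Mik, a gene for a myo-inositol kinase, measured 8.00 and 7.70 in arrested inflorescences, 7.10 and 7.01 at 6 h, 7.14 and 7.28 at 24 h and 6.96 and 7.21 at 48 h, and was called lower at all 3 times, calls that were lost in 2, 8 and 5 of 13 alternative settings. AT1G23000 and AT2G13840 were called lower at 6 h (-0.95 and -0.57) and at 48 h (-0.69 and -0.71), where the call of AT1G23000 was lost in 6 of 13 settings. The 6 h call of AT2G13840 was lost in 11 of 13. REV3, the catalytic subunit of a translesion DNA polymerase, was called lower at 48 h (-0.67 ± 0.18, limma adjusted p = 0.0281), a call lost in 6 of 13. Cell-division genes rose over the same course, with 13, 15 and 16 of 17 called higher, and anther and tapetum markers with 0, 0 and 10 of 11. List means of these anther markers were 5.62 to 5.73 in arrested inflorescences, 5.58 to 5.64 at 6 h, 5.93 at 24 h and 8.60 to 9.10 at 48 h.

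**Figure D4:**
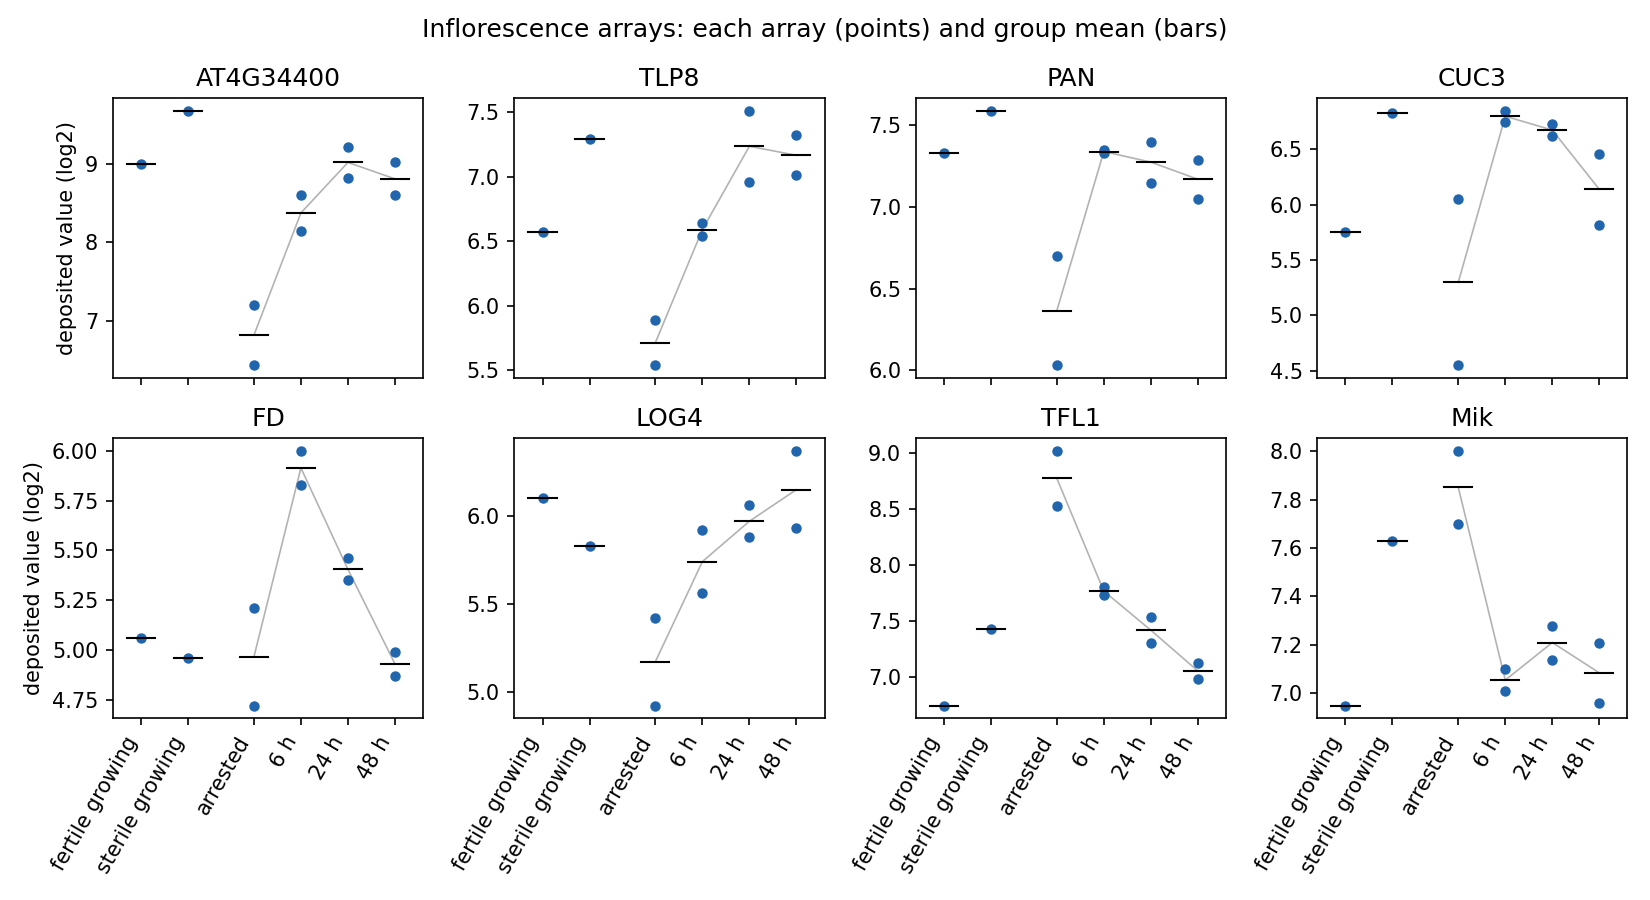
Each panel shows 1 of the 200 genes in the 10 inflorescence arrays (points, log2 value, with an axis range of its own), with group means as bars and a line joining arrested, 6 h, 24 h and 48 h. AT4G34400, TLP8 and PAN are lowest in the arrested arrays and TFL1 is highest there, while FD peaks at 6 h and returns to 4.87 and 4.99 at 48 h.

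Between 48 h and 6 h after removal, limma called 0 of the 200 genes, against 2.99% of all loci (2.06% higher and 0.925% lower), and 24 of the 200 (12%) had an unadjusted p under 0.05, against 19.8% of all loci. Other settings called 0 to 8 of them. The code block, which gave 8, called 8.29% of all loci. Sterile against fertile growing inflorescences, with 1 array each and the spread taken from the other groups, gave 0 called genes of the 200, against 0.67% of all loci (0.156% higher and 0.514% lower). In that comparison 41 of the 200 (20.5%) had an unadjusted p under 0.05, against 18.8% of all loci. Other settings called 0 to 8, and the code block, which gave 8, called 4.05% of all loci. The median difference was 0.45 for the 200 genes and 0.25 for all loci.

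Growing minus arrested could be set side by side in the 2 tissues. Of the 200 genes, 33 (16.5%) lay on the same side of arrest in both, without overlap between the growing and arrested arrays of either tissue, against 29.8% of all loci. Another 31 (15.5%) lay on opposite sides, against 11.8% of all loci. TFL1 was lower in growing than in arrested samples of both tissues, by -0.82 in meristems and -1.69 in inflorescences. PAN was higher in both, by 1.19 in meristems and 1.10 in inflorescences, as was MNP, by 1.29 and 0.83. UFO differed by 1.17 in meristems and 0.53 in inflorescences, and LOG4 by 0.69 and 0.80, though neither was called in inflorescences. AT4G34400, the largest rise in inflorescences, differed by 0.32 in meristems, at 11.77 and 11.69 in growing meristems and 11.41 in the arrested one. Of the 29 genes called in inflorescences, 14 lay on the same side in meristems and 8 on the opposite side. The other 7 did not separate growing from arrested arrays in meristems. No such split is given over all called loci, so these counts are description only. Among the 31 on opposite sides, 26 were lower in growing meristems and higher in growing inflorescences (13% of the 200, against 5.56% of all loci). Both tissues' arrays entered the score, so these shares too are partly set by the choice of genes.

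**Figure D5:**
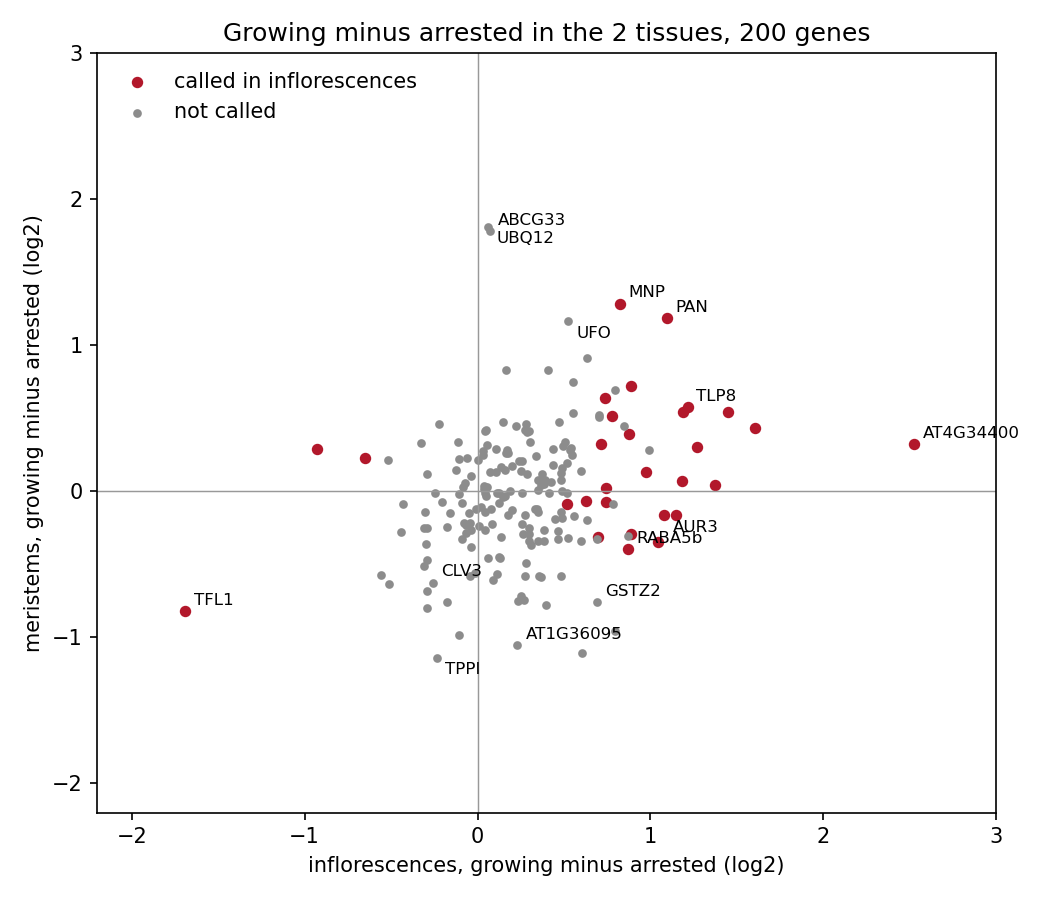
Each point is 1 of the 200 genes, with growing minus arrested in inflorescences on the x axis and in meristems on the y axis, both log2. Red points were called in inflorescences; TFL1 lies alone at the lower left (-1.69, -0.82), and PAN and MNP lie in the upper right quadrant.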

How the data were processed

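The values were the authors' deposited series table of 14 Affymetrix arrays, read as log2 because they lie between 0 and 16. No source used here states the normalization of the array signals. Per the labels' protocols, the GeneAtlas 3′ IVT Express kit labelled inflorescence RNA, and meristem RNA was isolated with PicoPure and amplified with RiboAmp Plus. The labels' protocols state that all but 3 to 4 fruits were removed, whereas the series text states all fruits. Of 21253 rows, 58 control rows were left out of the tests. Groups follow the labels. Precision is limited by how few arrays each group holds.

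No further normalization was applied. The 10 inflorescence arrays were fitted with limma 3.58.1 (R 4.3.3), 1 mean per group (6 groups), with Benjamini-Hochberg adjustment over 21195 loci, two-sided, and a gene was called at an adjusted p under 0.05. The 1-array groups were assumed to vary like the others (4 residual degrees of freedom). On simulated data for 48 h against arrested over 21195 loci, 21 of 100 genes changed by 1 and 70 of 100 changed by 2 on the log2 scale were called. No other loci were changed there, whereas 26.4% of all loci were called at 48 h in the real values. The adjustment was thus stricter in the simulation, and these rates do not give the power of the real comparisons. Loci were matched to the RefSeq gene table of TAIR10.1. No source used here explains the r or g code. Alternatives were other scalings, a filter on low values, the code as a block, limma with trend and robust options, and each array left out. The members and lists were chosen with earlier results of these data known. Genes named by rule were the 20 highest scores, up to 5 called genes in each direction of a comparison, the 5 largest meristem differences in each direction, the 3 genes on each side of the boundary and those in a marker list. Other genes were named after their values were seen.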

Additional observations from a re-analysis of the deposited data

Results flagged for a closer look

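In 10 genes all growing arrays lay on one side of the arrested arrays in meristems and on the other side in inflorescences. They are those that were either called in inflorescences or had one of the largest meristem differences. The difference between the tissues was not tested, and meristem states had 1 array each. Higher in growing inflorescences but lower in growing meristems were AT5G60250 (1.15 in inflorescences and -0.17 in meristems), AUR3 (1.08 and -0.17), AT1G31760 (1.05 and -0.35), PLC4 (0.89 and -0.29), RABA5b (0.87 and -0.40), AT1G11120 (0.70 and -0.32), GSTZ2 (0.69 and -0.76) and AT1G36095 (0.23 and -1.06). Lower in growing inflorescences but higher in growing meristems were AT3G47210 (-0.93 and 0.29) and AT5G65170 (-0.65 and 0.23). GSTZ2 and AT1G36095 were not called in inflorescences (limma adjusted p = 0.21 and 0.627).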

How the results depend on the processing

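The list itself depended most on how it was scored. Of the 200 genes, 91 remained among the top 200 by the difference of tissue means and 108 by the lowest difference in matched states, against 147 to 180 under 4 other settings. With 1 array left out, 119 (without the arrested meristem) to 200 remained, and 133 remained without the sterile growing inflorescence. The count of genes called in growing inflorescences ran from 4 to 50 with 1 array left out. The counts called after removal also moved with 1 array left out. They were highest without an arrested array, where more of all loci were called as well. They were lowest at 6 h without a 6 h array, at 24 h without the second 24 h array and at 48 h without the second 48 h array. Fewer of all loci were called in those settings too. Leaving out either 6 h array lowered the growing count, both in the 200 genes and over all loci. These falls are therefore not particular to the 200 genes. The code block gave 25 at 6 h, 28 at 24 h and 26 at 48 h, against 27.3%, 27.0% and 30.9% of all loci. Quantile normalization gave 25 at 48 h, against 6083 of all 21195 loci. For growing against arrested the code block gave the same counts as leaving out arrested array 2. Both growing arrays and arrested array 1 carry r, while arrested array 2 carries g. For 48 h against 6 h the counts were 2 with quantile normalization and 2 with median centring, against 929 and 594 of all loci. They were 1 with trend and robust options and 8 with the code block, against 844 and 1757 of all loci. For sterile against fertile growing the count was 8 with the code block, against 4.05% of all loci. The mean of the 3 active meristems differed from the arrested one by at least 2 in 0 genes. Over 50 named gene comparisons no direction was reversed in any setting, but 39 lost their call in at least 1. All 50 were called in the main fit and the settings share most arrays, so a reversal was unlikely from the outset. The 11 called in every setting were AT4G34400 and TFL1 in growing inflorescences, at 24 h and at 48 h, TLP8 at 24 h and 48 h, AT2G41820 and AT1G07270 at 48 h and AUR3 in growing inflorescences. The arrays left out for the growing groups were chosen after seeing the data. The filter on low values left 126 of the 200 genes to test. No paired analysis was possible because the titles' codes give no replicate numbers shared between groups. Signal over background could not be assessed, as detection calls were not used here.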
